A study of Homo sapiens with 24 samples.

Results

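The response of shNS Nalm6 cells to dexamethasone (dex) was measured by RNA sequencing in 6 of the 24 libraries of the series, namely 3 biological replicates that received 100 nM dex and 3 that received the ethanol vehicle alone, each for 8 h. Nalm6 is an established human B-cell acute lymphoblastic leukemia line. It was transduced with a lentiviral vector that expresses an shRNA against a non-specific sequence (shNS), so that the control cells carry the vector like the depleted ones, and was used as a population resistant to puromycin, not as a single clone. The other 18 libraries came from cells in which the coregulators G9a, GLP or HP1γ were depleted (shG9a, shGLP and shHP1γ), with the same treatments. The libraries were chosen by their labels alone, and each dex library was set against the ethanol library of its own replicate number. The extraction notes place the replicates of a condition on separate days, but do not say that a number marks the same day in ethanol and dex.

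Dex is a synthetic glucocorticoid that binds the glucocorticoid receptor (GR, gene NR3C1), a nuclear receptor held in the cytoplasm by HSP90 and its co-chaperones until hormone binds. The receptor then enters the nucleus, where it occupies glucocorticoid response elements and raises or lowers transcription of nearby genes with the help of coregulators. In lymphoid leukemia cells glucocorticoids slow proliferation, lower metabolic activity and lead to apoptosis, and they belong to the standard drugs against this leukemia.

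The deposited values were whole-number read counts per RefSeq accession, with totals from 10658972 to 12415531 in the 6 shNS libraries. Levels are given as normalized CPM, that is, counts scaled to the library size with upper quartile factors. Of 64519 accessions, 10167 of 9386 genes exceeded 1 CPM in 2 or more of the 24 libraries and were kept. Their changes were tested by the quasi-likelihood method of edgeR, in a model of all 24 libraries with replicate number as a block. A transcript was called at a Benjamini-Hochberg adjusted p of at most 0.05, over all tested transcripts. A fold change is the fitted ratio of dex to ethanol, with its standard error (SE) on the log2 scale. The cells carried part of the markers of their lineage. A list of 12 B-precursor markers summed to 1662 to 1831 CPM in ethanol and 1578 to 1771 CPM in dex. Of the 12, only 5 passed the filter on counts, and 4 were at 0 in all 6 libraries, including CD79B. VPREB1, PAX5 and EBF1 had at most 4, 6 and 4 counts in any shNS library. T-cell markers (6 of 8 at 0, at most 0.161 CPM in sum), erythroid markers (2 of 6 at 0, at most 0.368 CPM) and epithelial markers (5 of 6 at 0, at most 0.0849 CPM) were close to absent. Myeloid markers (4 of 8 at 0) summed to 4.51 to 8.24 CPM in ethanol and 3.07 to 3.61 CPM in dex, a difference whose part in the results was not tested. A count of 0 could not be read as lack of expression, because genes with 3 or more RefSeq accessions, which make up 60.4% of accessions, held 2.54% of all counts, and genes with a single accession held 93.5%.

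Dex changed 1012 of the 10167 transcripts in shNS cells, or 9.95%. Of these, 457 rose (4.49% of those tested) and 555 fell (5.46%). Rises dominated among large changes, whereas small changes of abundant transcripts made up most of the count. At least 2-fold changes were found in 194 transcripts (1.91%), 161 higher (1.58%) and 33 lower (0.325%), and their median level was only 3.91 CPM. Another 731 transcripts were well counted, with a mean of at least 10 CPM over the 6 libraries, and changed by less than 2-fold. This was 15.7% of the 4660 well-counted transcripts tested, with 244 higher (5.24%) and 487 lower (10.5%), and their median level was 138 CPM. The remaining 87 calls lay under 2-fold and under that level. The border at 2-fold ran through a continuum, with AHDC1 (log2 fold change 1.00, fitted fold just under 2) on the near side and BFSP2 (1.00, just over 2) on the far side.

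**Figure D1:**
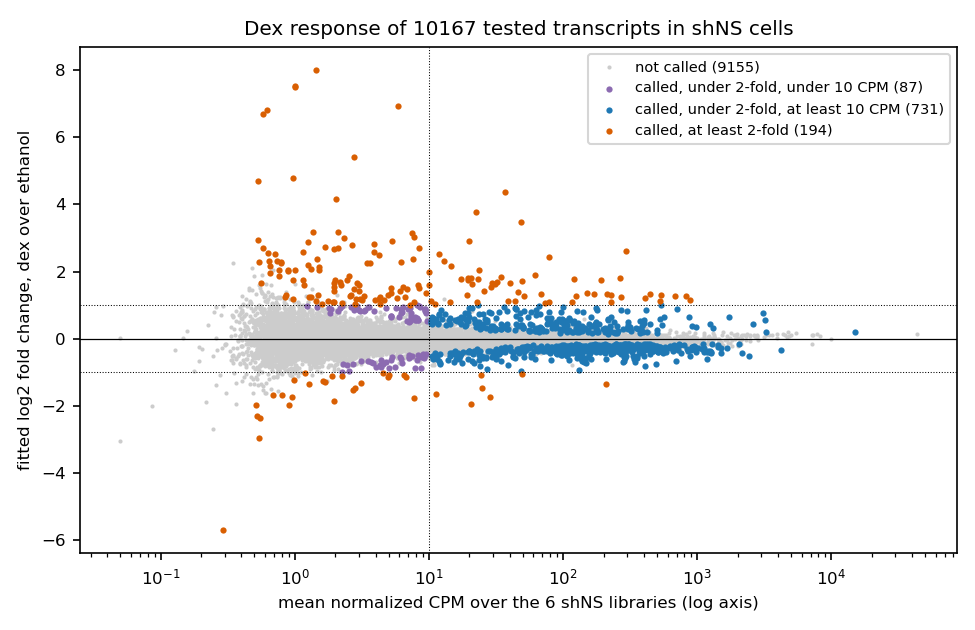
Fitted log2 fold change (dex over ethanol) of each tested transcript against its mean level in the 6 shNS libraries (normalized CPM, log axis, levels under 0.05 drawn at 0.05), with dotted lines at 2-fold and at 10 CPM. The 194 transcripts called with at least 2-fold lie mostly at low level and above 0, and the 731 called with less than 2-fold fill a narrow band on both sides of 0 at higher levels.

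Direction and size went together. Among the 344 calls under 1.25-fold, 80 were higher and 264 lower, and between 1.25-fold and 1.5-fold 110 of 305 were higher. From 1.5-fold to 2-fold, 106 of 169 were higher, from 2-fold to 4-fold 102 of 131, and at 4-fold or more 59 of 63. The share of transcripts called rose with the level, from 2.22% of those under 1 CPM to 24.4% of those at 200 CPM or more, while the median SE fell from 0.459 to 0.0632 on the log2 scale. The calls under 1.25-fold had a median level of 188 CPM and those from 2-fold to 4-fold a median of 6.06 CPM. The split between rises and falls among small changes depended on the scaling: 45.2% of all calls were rises with upper quartile factors, 56.5% with TMM factors and 53.7% with DESeq2. Among the moderate, well-counted calls the numbers of rises and falls were 244 and 487, 303 and 344, and 299 and 385. The median log2 fold change of all tested transcripts was -0.03, 0.01 and 0.00 under these scalings.

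Read as shares of the library, the called rises took 5.91% to 5.95% of all counts in the ethanol libraries and 8.31% to 8.58% in the dex libraries. The called falls took 14.4% to 15.2% in ethanol and 11.7% to 12.3% in dex. Rises of at least 2-fold accounted for a small part of this, from 0.447% to 0.456% in ethanol to 1.18% to 1.22% in dex. The moderate rises went from 5.44% to 5.48% up to 7.09% to 7.32%, and the moderate falls from 14.3% to 15.1% down to 11.6% to 12.2%. These shares describe transcripts chosen by the same contrast and are not a further test.

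Of the 1012 called transcripts, 1008 moved in their called direction in 3 of 3 replicates, and in 954 the 3 dex values did not overlap the 3 ethanol values. Over all tested transcripts, 10.7% lay wholly higher and 15.6% wholly lower in dex. For the 731 moderate changes, the numbers were 729 and 678, the size of the change had a median of 0.33 and a minimum of 0.15 on the log2 scale, and the median SE was 0.0721. The calls were made on these same libraries, so the agreement across replicates and the separation of groups are not a further test. The number of calls rested on all 3 replicates. Without replicate 3 in any group, 309 transcripts were called, 124 with at least 2-fold and 175 in the moderate class. Without the shNS dex library of replicate 3 there were 634 calls, 425 of them moderate, and without the shNS ethanol library of replicate 1 there were 469 moderate calls. Without the replicate block 518 transcripts were called, 168 with at least 2-fold and 309 moderate ones, a larger drop in the moderate class. Of 140 called transcripts that are named here or belong to the lists below, 76 were called in each of the 18 alternatives that gave them a value. Some of these 76, such as OR7A5, had a value in 17 of the 18, and 0 of the 140 changed sign. Leaving out any 1 shNS library ended 18 to 26 of these calls, and leaving out replicate 3 ended 57 of 139. Calls that were lost without replicate 3 are marked as such. The weakest calls were those held in few of the 9 fits that left out a replicate or a shNS library. DDIT3, PER2 and NFKBIB were called in 0 of them, with adjusted p from 0.0621 to 0.207, from 0.0513 to 0.317 and from 0.0812 to 0.346 (edgeR), and DDIT3 had a value in 6 of the 9. ATP5B, CDK4, EEF2, GADD45B, JUNB, KLF3 and PDLIM1 were called in 1 of 9. CHAC1, DDX21, DUSP7, ETV6, FASN, IRS2, SLC1A5 and an accession of LDLRAD4 were called in 2 of 9. Without replicate 3, DDX21 (adjusted p = 0.186) and this LDLRAD4 accession (adjusted p = 0.0818, edgeR) were not called.

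Called transcripts with a mean of 5 CPM or more and the same direction in 3 of 3 replicates were ranked by size. The first 10 rises were those of OR7A5, RASSF4, KLF2, TSC22D3, LINGO3, HEYL, SOCS1, GPR171, LINC00689 and SMIM3. TSC22D3 encodes GILZ, a glucocorticoid-induced leucine zipper protein that restrains inflammatory transcription factors, and lies on chromosome X from 106956451 to 107020572 (GRCh37). Its accession NM_004089 stood at 8.95, 8.10 and 7.14 CPM in ethanol replicates 1 to 3 and at 98.9, 86.8 and 81.4 CPM in dex, with a log2 fold change of 3.47 (SE 0.16, adjusted p = 2.72e-13, edgeR). RASSF4, a Ras-association domain protein on chromosome 10, went from 2.78, 4.05 and 3.49 CPM to 68.3, 69.9 and 73.7 CPM (log2 fold change 4.37, SE 0.21). For both genes every dex library was far above every ethanol library. KLF2, a zinc finger factor of lymphocyte quiescence and trafficking on chromosome 19, went from 2.17, 3.31 and 3.74 CPM to 40.1, 45.1 and 40.3 CPM (3.78, SE 0.37, adjusted p = 1.23e-07, edgeR).

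SOCS1, an inhibitor of JAK-STAT cytokine signaling, rose from 5.73, 4.51 and 3.83 CPM to 33.0, 34.1 and 38.1 CPM, with a log2 fold change of 2.91 (SE 0.17). HEYL, a basic helix-loop-helix repressor of the Notch pathway, went from 2.26, 0.921 and 1.79 CPM to 11.9, 12.1 and 17.2 CPM (3.03, SE 0.32). SMIM3, a small membrane protein, was the most abundant of the 10, with 96.5, 79.5 and 75.8 CPM in ethanol and 492, 514 and 505 CPM in dex (2.60, SE 0.17, adjusted p = 9.38e-11, edgeR). In all 10 transcripts the groups did not overlap, but these transcripts were chosen by the same values. Over all tested transcripts, 10.7% lay wholly higher in dex. LINGO3 (3.14, SE 0.23), the G-protein coupled receptor GPR171 (2.90, SE 0.48) and the noncoding LINC00689 (2.69, SE 0.28) started at or below 2.87 CPM in every ethanol library. OR7A5, an olfactory receptor gene, was near silent in ethanol with 2, 0 and 1 counts and had 141, 141 and 122 counts in dex. Set against the limit of 3 counts per library, it was at least 44.2-fold higher. OR7A5 shares its RefSeq promoter window with the neighbouring receptor gene OR7C1, so the source of these reads within the pair is uncertain.

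Among the 33 falls of at least 2-fold, ID3 was counted best. ID3, an inhibitor of basic helix-loop-helix factors in lymphocyte development, lies on chromosome 1 from 23884417 to 23885992. Its levels were 302, 296 and 300 CPM in ethanol and 126, 117 and 112 CPM in dex, with a log2 fold change of -1.34 (SE 0.07, adjusted p = 1.59e-12, edgeR). KCNJ2, an inward rectifier potassium channel, fell from 43.3, 46.0 and 40.8 CPM to 13.5, 14.7 and 11.3 CPM (-1.72, SE 0.15). IL7R, the alpha chain of the interleukin-7 receptor that early B cells use for growth, fell from 35.3, 33.2 and 31.5 CPM to 16.3, 15.1 and 16 CPM (-1.08, SE 0.12, adjusted p = 7.62e-07, edgeR).

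In these 3 transcripts the ethanol and dex libraries formed separate, tight groups. IL1B, an inflammatory cytokine, was at 16.8, 10.0 and 9.27 CPM in ethanol and 4.24, 3.44 and 2.75 CPM in dex (-1.78, SE 0.21). Its ethanol value in replicate 1 was the highest. A ratio below 1 within each replicate was a condition of this ranking. GP5, a platelet glycoprotein subunit, went from 33.4, 29.4 and 34.0 CPM to 10.6, 6.28 and 8.89 CPM (-1.93, SE 0.28). The inhibin beta subunits INHBE (-1.63) and INHBC (-1.07), PHLDA1 (-1.46), TMEM52 (-1.14) and TMEM119 (-1.08) completed the list of 10, with no overlap between groups in any of them. The 10 falls were chosen by the same values, and 15.6% of all tested transcripts lay wholly lower in dex. INHBC was not called without replicate 2 (adjusted p = 0.0638, edgeR) and TMEM52 not without replicate 3 (adjusted p = 0.0547, edgeR).

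**Figure D2:**
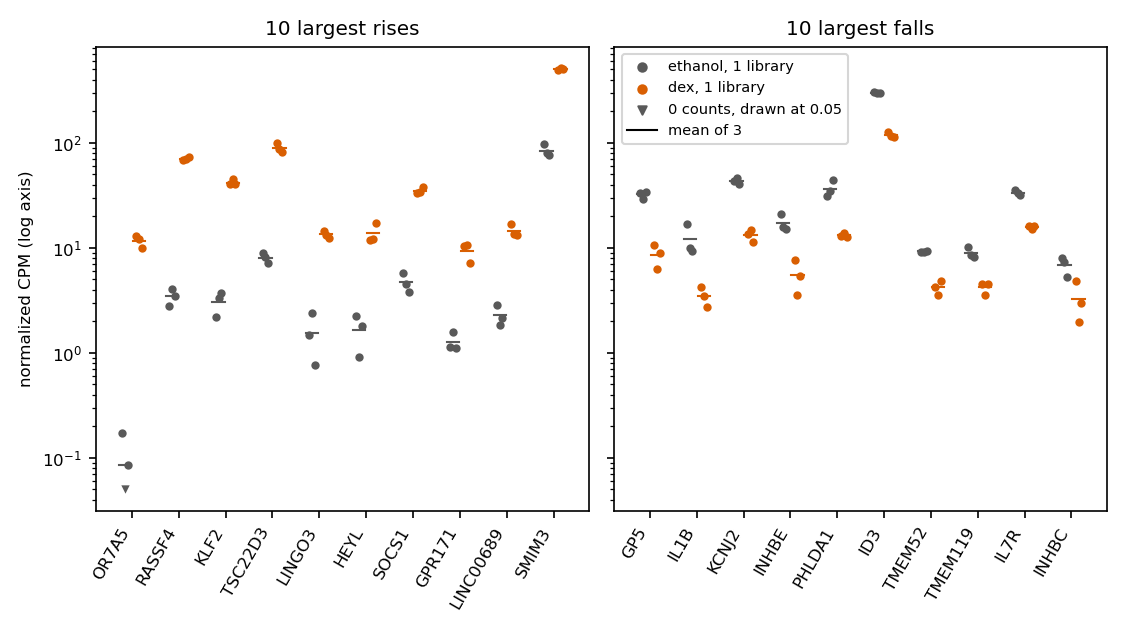
Normalized CPM (log axis) in each shNS library for the 10 largest rises and the 10 largest falls among called transcripts with a mean of 5 CPM or more, with ethanol in grey, dex in orange and bars at the mean of 3. All 20 transcripts were chosen by these same values, with the same direction in 3 of 3 replicates required. Their dex and ethanol points are separated, and OR7A5 had 1 ethanol library at 0 counts.

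The promoters of the rises were searched for a palindrome of the type GR dimers bind. RefSeq promoter windows (GRCh38.p14, 250 bases before to 50 after each start) could be matched for 101 of the 146 genes with a rise of at least 2-fold. The motif GNACANNNTGTNC, which reads the same on both strands, was present in windows of 5 of the 101. OR7A5 and OR7C1 share the same window, so these were 4 of 147 distinct windows (2.72%), against 21 of 9246 distinct windows of tested genes (0.227%) and 136 of 34943 in the whole table (0.389%). It was in 0 of 34 windows of genes with a fall of at least 2-fold, 0 of 241 windows of moderate rises and 2 of 483 windows of moderate falls. The shorter ACANNNTGT, which is contained in it, was in 15 of the 147 windows (10.2%), in 3.15% of windows of tested genes and in 5.38% of all windows. The stricter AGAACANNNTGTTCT was in 1 of 34943 windows and in none of those of tested genes. These are descriptions of letters in a short window, and binding was not measured here. The matching stretches, all upstream of the start, are shown because they belong to genes with large rises, with the motif in capitals on the strand of the gene:
CHST7 (GRCh38.p14, chrX:46573515-46573563, plus strand): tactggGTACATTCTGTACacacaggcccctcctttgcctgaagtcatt
LINC00689 (chr7:159008104-159008153, plus strand): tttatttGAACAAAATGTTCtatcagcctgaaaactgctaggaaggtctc
OR7A5 and OR7C1 (chr19:14835311-14835383, minus strand): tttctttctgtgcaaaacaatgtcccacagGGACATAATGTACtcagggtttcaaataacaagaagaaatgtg
TXNIP (chr1:145996712-145996784, minus strand): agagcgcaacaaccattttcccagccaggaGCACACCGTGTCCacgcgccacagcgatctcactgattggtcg
Of these genes, OR7A5 and OR7C1 rose from near-silent ethanol libraries, and LINC00689, CHST7 and TXNIP had log2 fold changes of 2.69, 1.74 and 1.40.

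The moderate changes were carried by abundant transcripts with small errors. PREX1, an exchange factor that activates Rac, rose from 491, 477 and 507 CPM to 900, 853 and 991 CPM (log2 fold change 0.89, SE 0.06, adjusted p = 4.87e-10, edgeR). LAPTM5, a lysosomal membrane protein of hematopoietic cells that lowers antigen receptor levels, rose from 2404, 2270 and 2261 CPM to 3962, 3914 and 3871 CPM (0.76, SE 0.07). AHDC1, an AT-hook DNA-binding protein, rose from 316, 340 and 418 CPM to 653, 666 and 826 CPM (1.00, SE 0.07). In each of these the lowest dex library lay well above the highest ethanol library. With them, DIP2C (0.85), TAPT1 (0.83), MSL3 of the male-specific lethal acetyltransferase complex (0.80), LOC101928841 (0.66), PRAG1 (0.66), the G-protein subunit GNG7 (0.66) and BOD1L1 (0.47) had the smallest p values among moderate rises.

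Among the most abundant moderate rises were the sulfotransferase CHST2, the actin-sequestering peptide TMSB4X, the LIM protein PDLIM1 and the translation elongation factor EEF2. CHST2 went from 2009, 2280 and 2288 CPM to 2885, 3035 and 3011 CPM (0.44, SE 0.06, adjusted p = 8.43e-06, edgeR). TMSB4X went from 2652, 2629 and 2454 CPM to 3399, 3991 and 3995 CPM (0.56, SE 0.10), and it was not called without replicate 3 (adjusted p = 0.0972, edgeR). The calls of EEF2 (0.19, SE 0.06, adjusted p = 0.0432, edgeR) and PDLIM1 (0.20, SE 0.06, adjusted p = 0.0426, edgeR) were marginal. When 1 replicate or 1 shNS library was left out, each was called in 1 of 9 fits, and the adjusted p reached 0.335 for EEF2 and 0.359 for PDLIM1, both without replicate 3.

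BCL2, the anti-apoptotic protein that holds mitochondrial apoptosis in check, was among the clearest moderate falls. Its accession NM_000633 (chromosome 18 from 60790579 to 60987361) fell from 323, 354 and 369 CPM to 211, 215 and 217 CPM (log2 fold change -0.70, SE 0.07, adjusted p = 8.48e-08, edgeR), which left 61.4% of the ethanol level. The dex libraries lay close together and below all ethanol libraries. RGS16, which shortens G-protein signaling, fell from 168, 176 and 183 CPM to 102, 105 and 118 CPM (-0.70, SE 0.07). CTSC, a lysosomal protease, fell from 173, 166 and 179 CPM to 108, 116 and 108 CPM (-0.64, SE 0.06). CD180, a Toll-like receptor homolog of B cells, fell from 56.0, 45.8 and 44.4 CPM to 32.8, 28.4 and 24 CPM (-0.78, SE 0.08). The groups were again apart in each of these. BYSL (-0.57), needed for assembly of the small ribosomal subunit, the small heat shock protein HSPB1 (-0.75), the kinase MAPK6 (-0.45), the zinc finger protein HIVEP2 (-0.60) and the immediate early gene IER2 (-0.66) were also among those with the smallest p values.

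The most abundant falls were smaller. Nucleolin (NCL), the major nucleolar phosphoprotein, went from 4346, 4872 and 4864 CPM to 3517, 3793 and 3945 CPM (-0.32, SE 0.07, adjusted p = 0.00235, edgeR). SLC7A5, the leucine transporter of the cell surface, went from 2505, 2842 and 3120 CPM to 1845, 1843 and 2305 CPM (-0.50, SE 0.11). Calreticulin (CALR), a chaperone of the endoplasmic reticulum, went from 2215, 2556 and 2713 CPM to 1635, 1944 and 1957 CPM (-0.44, SE 0.07). In these 3 the groups did not overlap, while in LARP1 (-0.28, SE 0.06) they did, since dex replicate 3 was above ethanol replicate 1. Without replicate 3, NCL (adjusted p = 0.111), SLC7A5 (adjusted p = 0.106) and LARP1 (adjusted p = 0.111, all edgeR) were not called. ATP5B (-0.17, SE 0.05, adjusted p = 0.0307, edgeR) lost its call under TMM (adjusted p = 0.0997) and was called in 1 of 9 fits with a replicate or library left out, not in that without replicate 3 (adjusted p = 0.354, edgeR).

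**Figure D3:**
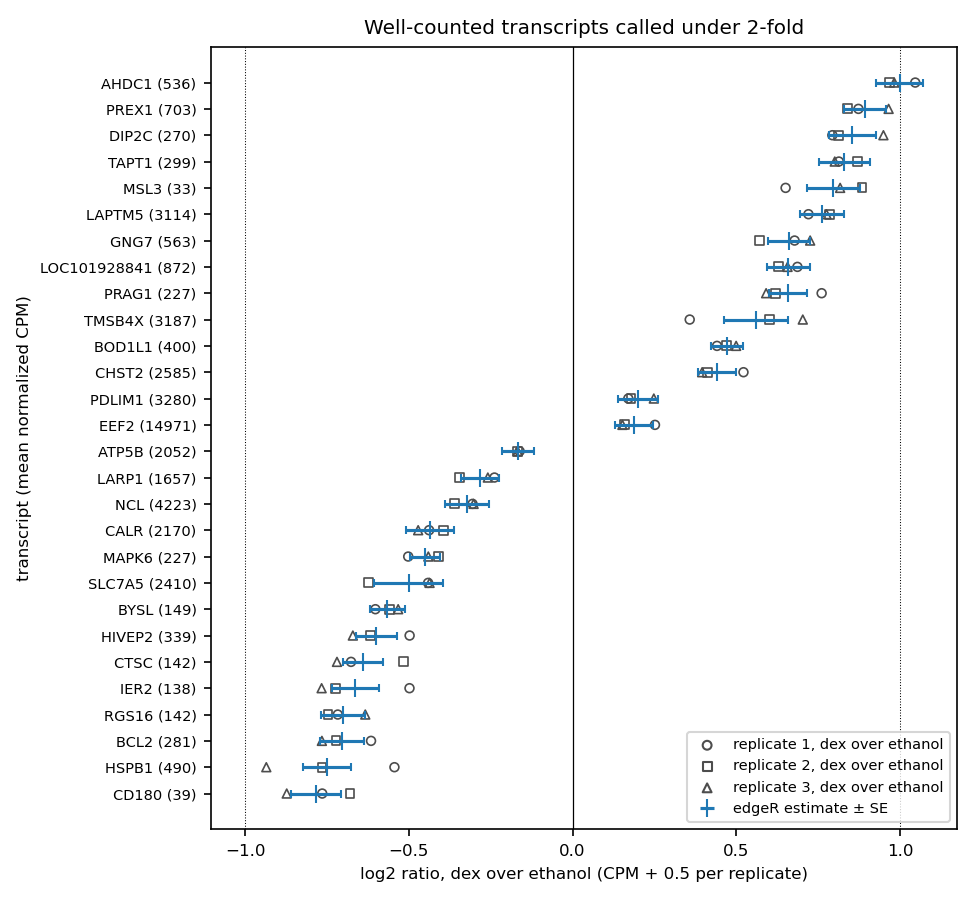
Log2 ratio of dex to ethanol for named well-counted transcripts that were called with less than 2-fold, with open symbols for each replicate, blue marks for the edgeR estimate ± SE and the mean normalized CPM in brackets. All 3 replicates of each transcript lie on the same side of 0, from about -0.9 for CD180 and HSPB1 to about 1 for AHDC1. The transcripts were called on these same replicates.

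Genes were also grouped by 24 lists, with each gene represented by its accession with the most counts. Counted in this way, 10.4% of 9386 genes were called, 4.55% higher and 5.82% lower, and the median log2 fold change was -0.03. Of 20 known GR targets, 13 were tested, 8 rose and 1 fell, with a median of 1.09. Besides TSC22D3, these were the HSP90 co-chaperone FKBP5 (1.75), the thioredoxin inhibitor TXNIP (1.40), the clock gene PER1 (1.25), the zinc finger factor KLF9 (1.11), the NF-κB inhibitor NFKBIA (1.09) and the metallothioneins MT1X (0.45) and MT2A (0.38). NFKBIA showed the regular pattern of these genes, with 155, 142 and 143 CPM in ethanol and 313, 312 and 309 CPM in dex (SE 0.07, adjusted p = 1.1e-10, edgeR). FKBP5 went from 8.95, 7.37 and 10.6 CPM to 25.9, 30.2 and 33.9 CPM (SE 0.15). The groups did not overlap in any of the 8. All 8 were called from these same libraries, and 10.7% of all tested transcripts lay wholly higher in dex. MT2A was not called without replicate 3 (adjusted p = 0.0922, edgeR). IRS2 (-0.28, adjusted p = 0.0372, edgeR) was the fall, and it was not called under TMM (adjusted p = 0.0811) or DESeq2 (adjusted p = 0.0607), nor without replicate 3 (adjusted p = 0.354). DUSP1, TSC22D1, ERRFI1 and CRISPLD2 were tested and not called, with log2 fold changes of -0.06, -0.05, -0.26 and 1.67.

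**Figure D4:**
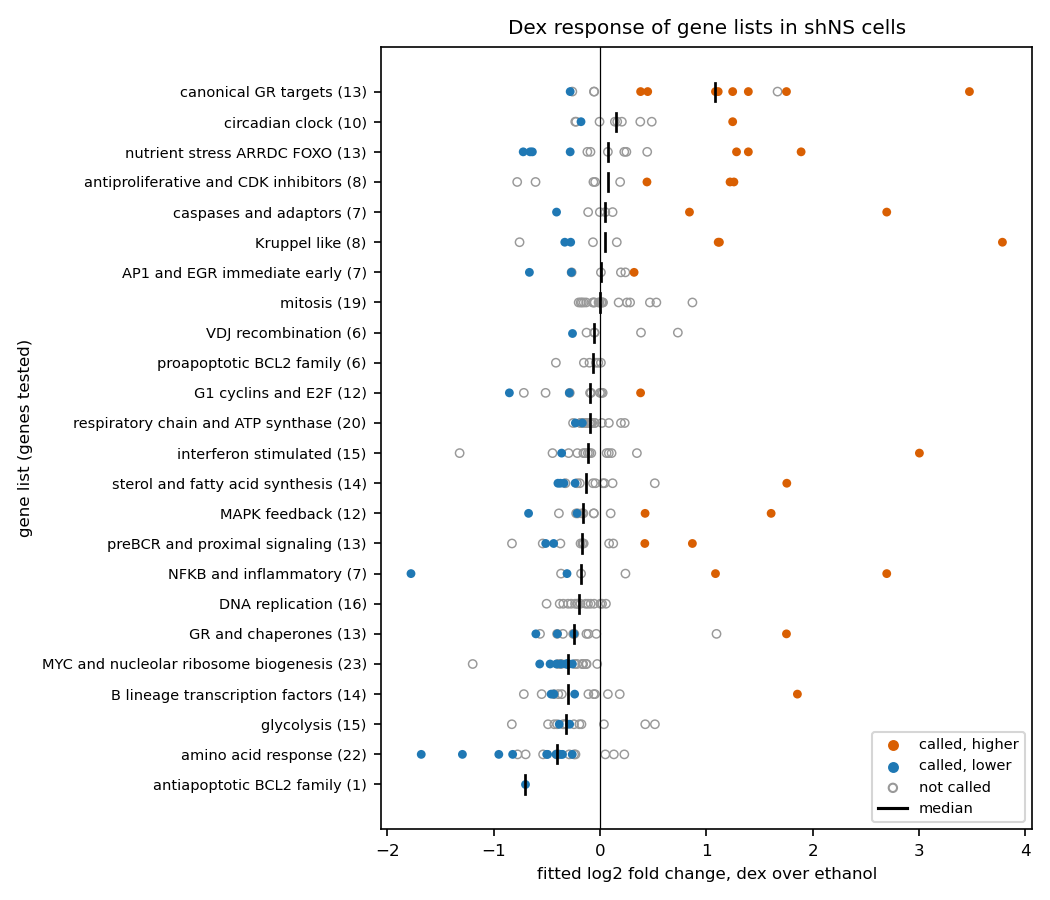
Fitted log2 fold change (dex over ethanol) of each tested gene in the 24 lists, with filled points for called genes, open points for genes not called and a bar at the median, and with the number of genes tested in brackets. The known GR targets stand to the right with a median of 1.09. Lists to the left include the amino acid response (median -0.40), glycolysis (-0.32), B-lineage transcription factors (-0.30) and ribosome biogenesis (-0.30).

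The receptor itself was poorly counted. NR3C1 was represented by NM_001204265, with 12, 23 and 15 counts in ethanol and 20, 43 and 49 in dex. Its log2 fold change of 1.10 (SE 0.39) did not pass the test (adjusted p = 0.0783, edgeR). Of 13 tested genes of the receptor and its chaperones, FKBP5 rose, and DNAJA1 (-0.60), DNAJB1 (-0.40) and HSPA8 (-0.24) fell. These HSP70-system genes lay at 34.7, 39.5 and 39.5 CPM in ethanol and 22.5, 24.8 and 27.7 CPM in dex for DNAJA1, while the HSPA8 groups overlapped. Without replicate 3, DNAJB1 (adjusted p = 0.106) and HSPA8 (adjusted p = 0.156, edgeR) were not called.

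Genes that restrain proliferation were among the strong rises. BTG1, an antiproliferative adaptor of mRNA deadenylation, went from 501, 481 and 478 CPM to 1180, 1193 and 1126 CPM (1.26, SE 0.08, adjusted p = 1.07e-10, edgeR). Its relative BTG2 went from 272, 237 and 225 CPM to 572, 576 and 559 CPM (1.22, SE 0.10). Both sets of dex libraries stood clear of the ethanol libraries. GADD45B, also in this list of 8 tested genes, rose by 0.44 on the log2 scale (adjusted p = 0.0312, edgeR) but was not called without replicate 3 (adjusted p = 0.161), and the other 5 were not called. Of 12 G1 cyclins and E2F-pathway genes, the cyclin CCNE2 (0.38) rose, and CDK4 (-0.29) and an accession of CCND3 (-0.85) fell. Without replicate 3, none of these 3 was called (adjusted p = 0.142, 0.279 and 0.151, edgeR), and the CDK4 call was also lost under TMM (adjusted p = 0.0639). Of 30 DNA replication genes and 25 mitosis genes, 16 and 19 were tested. MCM2, PCNA, CDK1 and CCNB1 were among those not tested, with at most 3 counts in any shNS library. Of the 16 and 19 tested genes, 0 were called in the main edgeR fit or by DESeq2. In the main fit the medians were -0.20 and 0.00, and 1 and 2 of the genes were lower at an unadjusted p under 0.05. With no filter on low counts, where 950 of 24375 transcripts were called, 2 replication genes fell. With an RUVr factor in place of the block, where 1001 of 10167 were called, 1 did. With the 6 shNS libraries alone, where 21.7% of all transcripts were called, 6 of the replication genes fell, and 1 mitosis gene rose and 5 fell. Without replicate 1, where 8.36% were called, 3 replication genes fell.

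In the BCL2 family, BCL2 was the only 1 of 6 anti-apoptotic genes tested. It fell, as did its second accession NM_000657 (-1.25, adjusted p = 0.00224, edgeR). MCL1, BCL2L1, BCL2L2, BCL2A1 and BCL2L10 had at most 3 counts in any shNS library and could not be tested. None of 6 tested pro-apoptotic members was called. The best counted of these were PMAIP1, with a log2 fold change of -0.10 (SE 0.07), and BAK1, with -0.02 (SE 0.07). BCL2L11, which encodes the BH3 protein BIM, had at most 10 counts in any ethanol library for its 18 accessions and could not be tested. Among 7 caspases and adaptors, the inhibitors of apoptosis BIRC3, with at most 3 counts in any ethanol library, and BIRC2 (0.84) rose from low levels, and CYCS (-0.41), the mitochondrial cytochrome c, fell from 541, 579 and 617 CPM to 389, 479 and 442 CPM. BIRC3 was not called without shNS ethanol replicate 1 (adjusted p = 0.111), and BIRC2 (adjusted p = 0.138) and CYCS (adjusted p = 0.0512, all edgeR) not without replicate 3.

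Of 22 tested genes of the amino acid response and tRNA synthetases, 11 fell and 0 rose, with 19 of 22 estimates below 0 and a median of -0.40. These counts were also 11 and 0 under TMM and DESeq2. SLC7A11, the cystine-glutamate exchanger, fell from 65.1, 60.9 and 64.1 CPM to 32.8, 30.6 and 35.0 CPM (-0.95, SE 0.15, adjusted p = 0.000113, edgeR). The pseudokinase TRIB3 went from 31.3, 29.6 and 30.4 CPM to 17.7, 17.0 and 17.1 CPM (-0.82, SE 0.14). The dex level of SLC7A11 was 51.7% of the ethanol level, and neither gene had overlapping groups. The tRNA synthetases SARS (-0.49, a noncoding accession), MARS (-0.41), YARS (-0.37), NARS (-0.35) and EPRS (-0.26) fell. So did the transporters SLC7A5 and SLC1A5 (-0.40). CHAC1 (-1.29) and DDIT3 (-1.68) fell by more than 2-fold, from low levels of at most 2.78 and 1.56 CPM. The other 11 of the 22 genes did not pass the test. ATF4, the transcription factor of this response, was at 0.05 (SE 0.15) and did not pass the test. Without replicate 3, TRIB3 (adjusted p = 0.0544), YARS (0.148), EPRS (0.204), SLC1A5 (0.315) and CHAC1 (0.052, all edgeR) were not called. The DDIT3 call was lost in all 6 fits with a library or replicate left out that gave it a value, and with DESeq2 (adjusted p = 0.126), without the block (adjusted p = 0.0971, edgeR) and with RUVr (adjusted p = 0.0544, edgeR). Without the replicate block, 7 genes of the list fell. Leaving out replicates or libraries lowered the count of falls in the list to between 4 (without replicate 3) and 11.

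Ribosome biogenesis genes showed the same kind of pattern. All 23 tested genes of the list of MYC-related and nucleolar factors had estimates below 0, 11 of them called, with a median of -0.30, and 11 were also called under TMM and DESeq2. MYC itself, with at most 11 counts in any shNS library, and NPM1, with 0, were not tested. Besides BYSL and NCL, the called genes included the processome and assembly factors RRP9 (-0.41), WDR43 (-0.37), WDR3 (-0.31), WDR12 (-0.30) and TSR1 (-0.26). WDR43 may stand for the group, with 407, 451 and 467 CPM in ethanol and 317, 352 and 358 CPM in dex (SE 0.06, adjusted p = 8.53e-05, edgeR). Its 3 dex libraries were below its 3 ethanol libraries. The nucleolar methyltransferase FBL (-0.16, SE 0.06) and the RNA polymerase I subunit POLR1A (-0.13, SE 0.08) were among the 12 that did not pass. The calls in this list leaned on the blocked design and on replicate 3: 1 gene was called without the replicate block and 2 without replicate 3, with medians of -0.30 and -0.28. Without replicate 3, RRP9 (adjusted p = 0.0532), WDR3 (0.141), WDR12 (0.127) and TSR1 (0.095, all edgeR) were among those not called.

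Other lists moved in both directions. Of 13 tested nutrient stress genes, 3 rose and 4 fell. DDIT4, an mTORC1 inhibitor, went from 417, 409 and 378 CPM to 970, 954 and 998 CPM (1.28, SE 0.16), and C10orf10, the FOXO target DEPP, from 27.5, 27.2 and 24.1 CPM to 87.4, 95.6 and 109 CPM (1.89, SE 0.15). DDIT4L, a close relative of DDIT4, went the other way, from 369, 326 and 356 CPM to 235, 216 and 216 CPM (-0.66, SE 0.11, adjusted p = 0.00014, edgeR), and so did the sestrin SESN2 (-0.64). The arrestin-domain gene ARRDC4 (-0.72) fell while its relative TXNIP rose, but its call was lost without replicate 3 (adjusted p = 0.0645, edgeR). Of 8 Krüppel-like factors, KLF2, KLF9 and KLF13 rose, and KLF3 (-0.33) and KLF16 (-0.27) fell, neither called without replicate 3 (adjusted p = 0.458 and 0.0999, edgeR). KLF13 was the most abundant riser of the family, with 321, 340 and 337 CPM in ethanol and 692, 713 and 772 CPM in dex (1.12, SE 0.09).

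Signaling genes of B-cell precursors changed in part. Of 13 tested genes of the pre-B-cell receptor and its proximal signaling, CD72 (0.87), an inhibitory coreceptor, and VAV3 (0.42) rose, and PLCG2 (-0.51) and FYN (-0.43) fell. CD72 went from 151, 125 and 107 CPM to 260, 232 and 203 CPM (SE 0.11, adjusted p = 7.77e-06, edgeR), with all dex libraries above all ethanol libraries. PLCG2, the phospholipase downstream of the receptor, fell from 327, 332 and 372 CPM to 239, 237 and 247 CPM. Without replicate 3, PLCG2 (adjusted p = 0.101), FYN (adjusted p = 0.184) and VAV3 (adjusted p = 0.0797, all edgeR) were not called. Of 14 B-lineage transcription factors, the coactivator POU2AF1 (-0.43), BCL11A (-0.46) and ETV6 (-0.24) fell, and a noncoding accession of IRF4 rose from at most 0.368 to at most 1.46 CPM. POU2AF1 went from 244, 225 and 240 CPM to 192, 163 and 172 CPM (SE 0.07, adjusted p = 0.000141, edgeR), whereas BCL11A (adjusted p = 0.298), ETV6 (adjusted p = 0.404) and IRF4 (adjusted p = 0.325, all edgeR) were not called without replicate 3. In the V(D)J recombination list 1 of 6 fell, XRCC5 (-0.27), a subunit of the Ku end-binding complex, also not called without replicate 3 (adjusted p = 0.0633, edgeR).

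Feedback regulators of MAPK signaling gave 2 rises and 2 falls of 12 tested. The phosphatase DUSP10 rose from 5.21, 3.96 and 3.06 CPM to 14.4, 10.5 and 12.2 CPM (1.61, SE 0.16, adjusted p = 1.34e-07, edgeR), DUSP6 rose by 0.42, and SPRY2 (-0.67) and DUSP7 (-0.21) fell. Without replicate 3, DUSP6 (adjusted p = 0.0852), SPRY2 (adjusted p = 0.238) and DUSP7 (adjusted p = 0.344, all edgeR) were not called. In the NF-κB and inflammatory list of 7 tested genes, NFKBIA and BIRC3 rose, and IL1B and a noncoding accession of NFKBIB (-0.31) fell. NFKBIB was not called under TMM (adjusted p = 0.071) or without replicate 3 (adjusted p = 0.346, edgeR). Of 7 AP-1, EGR and other immediate early genes, IER5 (0.32) rose and IER2 and JUNB (-0.27) fell. JUNB was not called under TMM (adjusted p = 0.139) or without replicate 3 (adjusted p = 0.402, edgeR). In the circadian list of 10, PER1 rose and PER2 (-0.18) fell, and PER2 was called in 0 of 9 fits with a replicate or library left out (adjusted p from 0.0513 to 0.317, edgeR) and not without the block (adjusted p = 0.614, edgeR).

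Metabolic lists other than amino acid supply held fewer calls. Of 14 sterol and fatty acid synthesis genes, the desaturase SCD (-0.39), FASN (-0.37), SQLE (-0.34) and FADS1 (-0.23) fell, and an accession of LSS (1.76) rose from about 1 CPM. SCD, the most abundant of these, went from 1408, 1347 and 1567 CPM to 1079, 1008 and 1201 CPM (SE 0.09, adjusted p = 0.00316, edgeR). Of 15 glycolysis genes, the glucose transporter SLC2A1 (-0.38) and PGK1 (-0.28) fell, and of 20 respiratory chain and ATP synthase genes, NDUFA9 (-0.23) and ATP5B did. The medians of these 2 lists were -0.32 and -0.09, with 12 of 15 and 16 of 20 estimates below 0. Without replicate 3, SCD (adjusted p = 0.0684), FASN (adjusted p = 0.39), FADS1 (adjusted p = 0.116), SLC2A1 (adjusted p = 0.0535), PGK1 (adjusted p = 0.156), NDUFA9 (adjusted p = 0.144) and ATP5B (adjusted p = 0.354, all edgeR) were not called. Of 15 interferon-stimulated genes, an accession of the exonuclease ISG20 rose (3.00) from at most 0.829 CPM and OAS2 (-0.36) fell, the latter not without replicate 3 (adjusted p = 0.087, edgeR).

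Most genes were represented by a single tested accession. Of 695 genes with more, 623 had none called, 53 had some called in a single direction, 18 had all called in the same direction and 1, CCND3, had calls in opposite directions. CCND3, a G1 cyclin, had NM_001287427 falling from a mean of 5.22 to 2.84 CPM, with overlapping groups, and NM_001287434 rising from 0.262 to 0.850 CPM (1.66, adjusted p = 0.0298, edgeR). The latter rested on a mean of 6.33 counts per library. All 3 tested accessions of TSC22D3 rose, 2 of them from at most 2 counts in any ethanol library.

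The dex contrasts of the depleted cells compare other libraries than the shNS contrast, but all 24 were fitted together, so the contrasts share the estimates of spread and the replicate terms. Of all tested transcripts, dex changed 634 (6.24%) in shG9a, 334 (3.29%) in shGLP and 327 (3.22%) in shHP1γ cells. Of the 161 rises of at least 2-fold in shNS cells, 159, 158 and 160 had the same sign in shG9a, shGLP and shHP1γ cells, and 116, 103 and 109 were called there. Of the 33 falls of at least 2-fold, 30, 29 and 31 kept their sign, and 12, 8 and 9 were called. Of the moderate changes, 241, 241 and 243 of the 244 rises and 468, 486 and 485 of the 487 falls had the same sign, with 111, 77 and 88 rises and 149, 117 and 92 falls called. None of these was called in the opposite direction. Over the 9155 transcripts that were not called in shNS cells, the same sign was seen in 62.2%, 66.5% and 66.8%.

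Within the moderate class, 237 of the 244 rises and 465 of the 487 falls had the same sign in all 3 depletions. The median log2 fold change of the moderate falls was -0.31 in shNS cells and -0.17, -0.20 and -0.18 in the depleted cells, and that of the rises of at least 2-fold was 1.66 and 1.16, 1.10 and 1.10. The transcripts were selected on the shNS libraries, so nothing is read from these smaller medians. BCL2 fell in all of them, with log2 fold changes of -0.52, -0.49 and -0.35 (adjusted p = 1.79e-05, 4.03e-05 and 0.00274, edgeR), and LAPTM5 rose by 0.75, 0.64 and 0.68 on the log2 scale. SLC7A11 had values of -0.83, -0.44 and -0.18 (adjusted p = 0.00144, 0.147 and 0.696, edgeR). A call in some cells and not in others is no test of a difference. In the interaction test below, SLC7A11 did not pass in shHP1γ cells. EEF2, at 0.01, 0.09 and 0.07, was called in none.

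**Figure D5:**
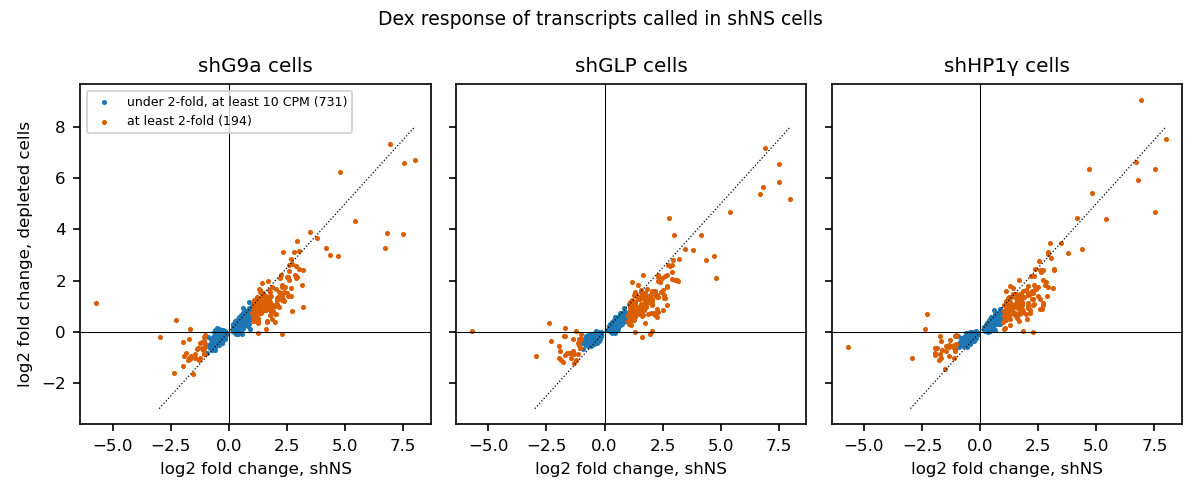
Log2 fold change after dex in shG9a, shGLP and shHP1γ cells (vertical axes) against that in shNS cells (horizontal axes) for transcripts called in shNS cells, with at least 2-fold changes in orange, moderate well-counted changes in blue and equality dotted. Nearly all points lie in the quadrants of equal sign, 468 to 486 of the 487 moderate falls among them.

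The difference between responses was tested for each depletion as an interaction. Few transcripts passed: 9 in shG9a (0.0885%), 12 in shGLP (0.118%) and 2 in shHP1γ cells (0.0197%), with 686 (6.75%), 395 (3.89%) and 387 (3.81%) at an unadjusted p under 0.05. CYTH3, an exchange factor for ARF GTPases on chromosome 7 from 6201410 to 6312275, was among the passing transcripts in each. In shNS cells it went from 118, 120 and 118 CPM to 387, 400 and 448 CPM, a log2 fold change of 1.79 (SE 0.09, adjusted p = 7.33e-13, edgeR). Its mean levels in ethanol and dex were 104 and 205 CPM with shG9a, 99.8 and 193 CPM with shGLP, and 107 and 200 CPM with shHP1γ. The ethanol levels were thus close to the 119 CPM of shNS cells and the dex levels far from its 412 CPM. The 3 interactions share the shNS libraries and are not independent of each other. No interaction was called for CYTH3 without replicate 2 (adjusted p from 0.0808 to 0.13) or replicate 3 (adjusted p from 0.353 to 0.742, edgeR).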

How the data were processed

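RNA of Nalm6 cells was sequenced by the authors, who aligned trimmed reads to hg19 (GRCh37) by HISAT2 and made counts per RefSeq transcript by GenomicAlignments. The deposited table is named for CPM but holds raw whole-number counts, which were used as deposited, with every column assigned to a library from its name. The counting mode and the use of strand are not given in the sources used here. A second deposited table holds the authors' log2 fold changes and FDR values, which were not used beyond the pairing of accessions with symbols.

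Counts were filtered, scaled and tested in R 4.3.3 with edgeR 4.0.16 as described above. Alternatives used DESeq2 1.42.0 and limma 3.58.1 with voom weights, TMM factors, other filters, RUVr, sums per gene, no block, the 6 shNS libraries alone and libraries left out. Same-numbered shNS ethanol and dex libraries had correlated deviations from their group means (r across transcripts of 0.157, 0.0703 and 0.231, weakest for replicate 2), and the number was kept as a block. Per the labels the replicates of a condition were made on separate days. That same-numbered libraries share a day is not stated and was assumed. Within each shNS group, no replicate duplicated another (chi-squared per degree of freedom between replicates 4.40 to 11.6). Other pairs of libraries were not compared in this way. The script was tested on simulated data. Ratios per replicate used a pseudocount of 0.5 CPM. The limit of detection was taken as 3 counts per library, and limits cover counting error only. With 3 libraries against 3, an exact permutation test of a single transcript could not pass, so tests were those of the fit over all transcripts.

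Named transcripts were the 10 called rises and 10 called falls of largest size with a mean of 5 CPM or more, the moderate changes with the 10 smallest p values or the 5 highest levels in each direction, members of the 24 lists, 10 fixed genes and up to 5 interactions per depletion. They include EHMT1 (GLP) and CBX3 (HP1γ), which dex did not change beyond the test (adjusted p = 0.421 for EHMT1, and 0.836 and 0.783 for the CBX3 accessions, edgeR). BFSP2, CHST7, OR7C1 and the CCND3 accessions were named after their values were seen. A transcript that the rule names is not reported here. The lists and rules were chosen with earlier results of these data known. Gene positions are from GENCODE on GRCh37.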

Additional observations from a re-analysis of the deposited data

Results flagged for a closer look

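These transcripts had a dex response that differed between a depletion and shNS cells by the interaction test of edgeR (at most 5 for each depletion, by smallest p). Differences are log2 fold change in the depleted cells minus that in shNS cells. In shG9a cells the fall of ID3 was weaker (0.70, SE 0.09, adjusted p = 0.00185), with a mean of 402 CPM in ethanol and 258 CPM in dex against 299 and 118 CPM in shNS cells. The rises of PER1 (-0.72), CYTH3 (-0.81), the noncoding HOST2 (-1.23) and the potassium channel KCNK3 (-0.99) were smaller than in shNS cells (adjusted p from 0.00344 to 0.0143, edgeR).

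In shGLP cells the passing transcripts were CYTH3 (-0.85), ID3 (0.60), the CDC42 effector CDC42EP2 (-0.81), the adhesion molecule MCAM (-0.43) and the butyrophilin BTNL9 (-0.87), with adjusted p from 0.00598 to 0.00954 (edgeR). In shHP1γ cells they were CYTH3 (-0.89, adjusted p = 0.00247) and METTL7A (-0.64, adjusted p = 0.0272, edgeR). The METTL7A difference was not called in any of 9 fits with a replicate or shNS library left out (adjusted p from 0.0559 to 0.551), nor without the block (adjusted p = 0.9999) or with RUVr (adjusted p = 0.134, all edgeR), while that of CYTH3 was called in 7 of 9. In shNS cells METTL7A rose from 59.8, 56.2 and 47.7 CPM to 196, 194 and 169 CPM, and KCNK3 from 6.78, 8.75 and 12.4 CPM to 29.1, 39.7 and 45.8 CPM. All these differences opposed the direction of the shNS response. Because the same shNS libraries enter each difference, the depletions are not independent, and each of these calls was lost without replicate 2 and without replicate 3. Besides METTL7A, those of KCNK3 and HOST2 were called in the fewest of the 9 fits, 3 and 4.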

How the results depend on the processing

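Without the replicate block, that is, without pairing libraries of the same number, 518 transcripts were called, 309 of them moderate, and the interactions gave 2, 1 and 1 for shG9a, shGLP and shHP1γ. With the 6 shNS libraries alone, 2207 were called, 1750 moderate. The filter of a 5 CPM mean left 88 calls of at least 2-fold, since transcripts of low level were not tested. Interactions numbered 15 for shG9a and 11 for shHP1γ with DESeq2, 63, 23 and 31 with no filter on low counts, and 5 for shG9a and 1 for shHP1γ with an RUVr factor in place of the block. With a replicate or a shNS library left out, calls ranged from 309 to 827, those of at least 2-fold from 124 to 205, moderate ones from 175 to 604, and interactions from 0 to 10, 0 to 9 and 0 to 2. The lowest numbers of shNS calls came without replicate 3, and the cause was not tested. Of the named calls, 40 of 140 were lost without the block, 9 with TMM (ATP5B, CDK4, DUSP7, ETV6, FASN, IRS2, JUNB, KLF3 and NFKBIB) and 8 with DESeq2, and 0 reversed. At this depth a transcript at 10 CPM had about 109 to 124 counts per library, and the median SE was 0.118 on the log2 scale from 10 to 50 CPM and 0.459 under 1 CPM.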
